A study of Saccharomyces cerevisiae with 5 samples.

Results

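The genes described here are 10 glucose-repressed genes of budding yeast (Saccharomyces cerevisiae) that serve growth on carbon sources other than sugar: FBP1, PCK1, MDH2, ICL1, MLS1, ADH2, ACS1, JEN1, SFC1 and CAT8. They were chosen by name for this known behaviour, with earlier results of these data known. All 10 had a single matched probe set each, among 5449 genes measured on the arrays. Transcripts were measured on 5 Affymetrix expression arrays, 3 with RNA of the wild-type strain FY4 and 2 with RNA of a strain labelled as a PHO2 deletion mutant, whose background strain and marker the labels do not give. PHO2 encodes a homeodomain transcription factor of purine synthesis and phosphate genes. Per the labels, every culture grew exponentially as a batch in minimal medium with glucose, and the deletion strain was to be set against FY4. The question here is whether genes that glucose represses are raised together with the respiratory genes. Several of the latter had higher signals with the RNA labelled PHO2 deletion.

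In glucose-grown yeast, sugar is split by glycolysis and fermented, and the reverse route, gluconeogenesis, is kept off. When glucose runs out, the kinase Snf1 relieves the repressor Mig1 and acts on the activators Cat8 and Adr1, and genes for the use of ethanol, acetate and lactate are switched on strongly. The glyoxylate cycle then builds C4 acids from acetate, and phosphoenolpyruvate carboxykinase and fructose-1,6-bisphosphatase turn them into sugar phosphates. Respiration is raised in the same transition, in part through the activator Hap4.

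Values are log2 of the deposited signal unless a fold is named, and differences are the arrays labelled PHO2 deletion minus wild-type. The median log2 value over all genes lay between 11.09 and 11.18 on the 5 arrays, and gene values correlated across genes with r of 0.988 to 0.995 within groups and 0.965 to 0.988 between them. A background bound of 6.44 was set as the 95th percentile of annotated probe sets that matched no budding yeast gene. PHO2 itself gave 10.72, 10.54 and 10.38 on the wild-type arrays and 10.07 and 10.84 on the arrays labelled PHO2 deletion, so its probe set does not separate the groups. The sources used here do not say which part of the gene was removed or where the probes lie, so the group names are those of the labels. The labels give no mating type. All 6 genes listed for a cells were above the bound on every array, and MF(ALPHA)1, the main alpha-factor gene, was below it on all wild-type arrays and at 6.91 and 6.60 on the arrays labelled PHO2 deletion. STE3, the receptor gene of alpha cells, was at 7.62, 7.51 and 7.60 against 8.72 and 8.29 and rose (adjusted p = 0.0312 by limma, 0.0108 to 0.124 over the alternatives; it did not pass when any wild-type array was left out, nor without PHO2 deletion replicate 1), and the a-cell genes MFA1 and AGA2 differed by 1.38 and 1.28 without passing. The other alpha-cell genes, MF(ALPHA)2 and SAG1, were above the bound on every array and differed by -0.21 and 0.07, so that 3 of the 4 alpha-cell genes were above it throughout. The labels do not say whether replicates were separate cultures, so the p-values measure only the spread among these arrays, which may be technical.

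The 10 glucose-repressed genes showed no called change in either direction. Of the 10 genes, 0 rose and 0 fell by limma (adjusted p below 0.05), and 2 had an unadjusted p below 0.05, both with lower values. Over all genes, 5.05% passed the adjusted threshold and 29.4% had an unadjusted p below 0.05, 16.1% with higher and 13.3% with lower values. The differences of the 10 genes had a median of 0.02, beside 0.01 over all genes, with 6 above 0 and 4 below. In 8 genes the values of the groups overlapped, and in 2 genes, ICL1 and ADH2, both arrays labelled PHO2 deletion lay below every wild-type array. Such separation was common, since 53.0% of all genes had groups that did not overlap, 25.9% of all genes with lower values. The 9 genes above the bound on every array had wild-type means from 7.57 (FBP1) to 10.89 (ACS1). ICL1 had 10.44 and MDH2 9.93, where the median over all genes was 11.09 to 11.18 on the arrays. These genes thus gave signal in the wild-type cultures, and how far glucose repression held there was not tested. For these 9 genes, the 95% interval of the difference stayed within a 2-fold change in either direction. The highest upper end was 1.67-fold, for MDH2, and the lowest lower end was 0.569-fold, for ADH2. Signals average over a culture, so fewer expressing cells and less RNA per cell cannot be told apart.

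**Figure D1:**
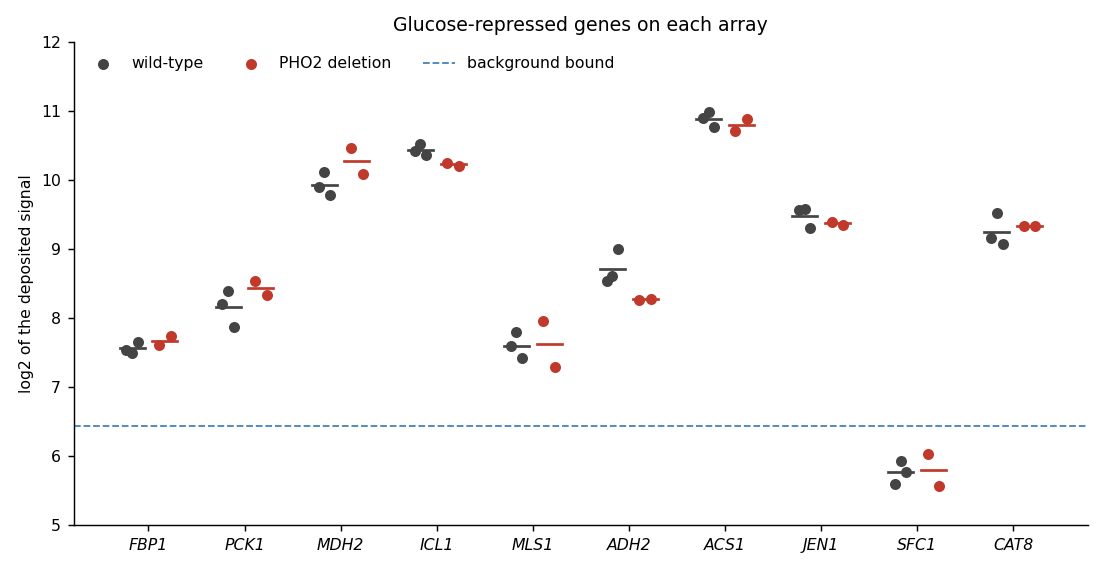
Log2 signal (vertical axis) of the 10 glucose-repressed genes on each array, with points for arrays (dark, 3 wild-type; red, 2 labelled PHO2 deletion), short lines for group means and a dashed line for the background bound of 6.44. The groups overlap in 8 genes, ICL1 and ADH2 are lower on both arrays labelled PHO2 deletion, and SFC1 lies below the bound on all 5 arrays.

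The 3 genes of gluconeogenesis proper had differences above 0, and none passed the test. FBP1 encodes fructose-1,6-bisphosphatase, the enzyme that reverses the phosphofructokinase step. Its values were 7.55, 7.50 and 7.66 on the wild-type arrays and 7.61 and 7.75 on the arrays labelled PHO2 deletion. The highest wild-type array thus lay between the other group's arrays, and all were about a single log2 unit above the bound, where true fold changes are understated. The difference was 0.11 (SE 0.08, 1.08-fold, 95% interval 0.94 to 1.24, adjusted p = 0.382 by limma). PCK1 encodes phosphoenolpyruvate carboxykinase, which turns oxaloacetate into phosphoenolpyruvate. It gave 8.21, 8.40 and 7.88 on the wild-type arrays against 8.54 and 8.34. The wild-type arrays alone spanned 0.52, wider than the difference of 0.28 (SE 0.17, 1.21-fold, interval 0.91 to 1.62, adjusted p = 0.305 by limma). MDH2, the cytosolic malate dehydrogenase that supplies oxaloacetate for this route, had the largest positive difference of the 10. Its values were 9.90, 10.12 and 9.78 on the wild-type arrays and 10.47 and 10.09 on the arrays labelled PHO2 deletion, so that the second of these lay within the wild-type range. The difference of 0.35 (SE 0.15, 1.27-fold, interval 0.97 to 1.67) did not pass the test (adjusted p = 0.197 by limma).

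The genes of the enzymes that define the glyoxylate cycle, ICL1 and MLS1, held no called change. ICL1 encodes isocitrate lyase, which splits isocitrate into glyoxylate and succinate. It gave 10.42, 10.52 and 10.36 on the wild-type arrays and 10.26 and 10.21 on the arrays labelled PHO2 deletion, lower on both of them. The difference was -0.20 (SE 0.07, 86.8% of the wild-type level), with an unadjusted p of 0.0276 and an adjusted p of 0.132 by limma. With the arrays quantile normalized again, ICL1 fell by 0.29 and passed the test (adjusted p = 0.0449 by limma, the lowest over 13 alternatives, with 0.380 the highest). MLS1 encodes malate synthase, which joins glyoxylate and acetyl-CoA. Its values were 7.60, 7.80 and 7.43 on the wild-type arrays and 7.96 and 7.30 on the arrays labelled PHO2 deletion, which thus held both its highest and its lowest value. The difference of 0.02 had the widest interval of the 9 detected genes, from 0.69-fold to 1.49-fold (adjusted p = 0.958 by limma).

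Genes for the use of ethanol and acetate were no higher. ADH2 encodes the alcohol dehydrogenase that oxidises ethanol, and it is a standard example of a gene shut off by glucose. It gave 8.54, 8.61 and 9.00 on the wild-type arrays against 8.27 and 8.29. The arrays labelled PHO2 deletion agreed within 0.02 and lay below all 3 wild-type arrays, of which replicate 3 stood highest. The difference of -0.44 (SE 0.15, 73.9% of the wild-type level, interval 0.569-fold to 0.961-fold) had the largest size of the 10, with an unadjusted p of 0.0311 and an adjusted p of 0.136 by limma. ACS1, the acetyl-CoA synthetase that is repressed by glucose, gave 10.90, 10.99 and 10.77 on the wild-type arrays and 10.71 and 10.88 on the others. The groups overlapped, and the difference was -0.09 (SE 0.09, interval 0.80-fold to 1.10-fold, adjusted p = 0.532 by limma).

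Carriers and the activator gene showed no called change either. JEN1, the plasma membrane carrier for lactate and pyruvate, gave 9.57, 9.59 and 9.30 on the wild-type arrays and 9.40 and 9.35 on the arrays labelled PHO2 deletion, inside the wild-type range. The difference was -0.11 (SE 0.10, interval 0.77-fold to 1.11-fold, adjusted p = 0.505 by limma). SFC1, the mitochondrial carrier that exchanges succinate for fumarate, was below the background bound on all 5 arrays, with values from 5.57 to 6.03. No fold is given for it, since its signal did not clear the bound in either group. CAT8 encodes the zinc cluster activator of most of the genes above, and its own gene is repressed by glucose. It gave 9.16, 9.53 and 9.08 on the wild-type arrays and 9.33 on both others, within the wild-type range (difference 0.08, SE 0.14, interval 0.82-fold to 1.36-fold, adjusted p = 0.744 by limma).

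Among the wild-type arrays many of these genes varied in the same order. In 7 of the 10, replicate 2 was highest and replicate 3 lowest, an order held by 23.6% of all genes and by 18.1% of genes over 600 nt in coding length. The order was also common in some other lists, so it was not particular to these 10, and it was rare in others. It was held by 61.1% of 18 other glucose-repressed genes and by 55.3% of 47 respiratory genes. Among 10 genes for other sugars, glucose phosphorylation and glucose sensing 60.0% had it. Among 10 genes listed as markers of cultures that leave the glucose phase 70.0% had it. Shares were lower for 23 genes of the glucose repression machinery (39.1%) and 8 of the GID ubiquitin ligase (12.5%). The share was 0% for 14 counterparts of these enzymes and for the a-cell and alpha-cell genes. By coding length, 51.5% of all genes of 600 nt or less had the order, and 39.1% of the respiratory genes over 600 nt. PCK1, MDH2, ICL1, MLS1, ACS1, JEN1 and CAT8 had this order, and the exceptions were FBP1, ADH2 and SFC1. This order was noticed after the values were seen and is given as a description. The median over the 10 genes, each taken relative to its wild-type mean, was -0.02, 0.14 and -0.13 on the wild-type arrays and 0.06 and -0.07 on the arrays labelled PHO2 deletion. Both of the latter therefore lay between the wild-type extremes. The median SE of the 10 differences was 0.15, beside 0.08 over all genes, so these differences had larger errors than that of a typical gene.

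Some genes listed as counterparts of these enzymes changed, and not every listed gene serves growth on glucose. Of 14 such genes 2 rose, 1 fell and 11 did not pass the test, with a median of -0.08. Over all genes 3.17% rose and 1.87% fell. PYC1, the gene of a pyruvate carboxylase isozyme, gave 13.64, 13.73 and 13.78 on the wild-type arrays and 13.13 and 13.16 on the arrays labelled PHO2 deletion. It fell by 0.58 (SE 0.06, adjusted p = 0.0156 by limma), and the groups were far apart. Its isozyme PYC2 differed by 0.04 (SE 0.05). MDH1, the mitochondrial malate dehydrogenase of the tricarboxylic acid cycle, rose from 13.45, 13.46 and 13.47 to 13.78 and 13.73 (0.30, SE 0.05, adjusted p = 0.0441 by limma), with wild-type arrays that agreed closely. MDH1 was listed here and not among the 47 respiratory genes below, which hold other genes of that cycle. MDH2 had a difference of similar size, 0.35, but a larger SE (0.15), and the peroxisomal form MDH3 differed by 0.02 (SE 0.12).

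ADH5, a further alcohol dehydrogenase isozyme, rose by 0.41 (SE 0.05, adjusted p = 0.0239 by limma), while ADH1, the main fermentative enzyme, differed by -0.01 (SE 0.05, adjusted p = 0.888). ADH2, at -0.44, thus lay on the other side of 0 from ADH5. ACS2, the acetyl-CoA synthetase that is made in glucose, differed by -0.21 (SE 0.05, adjusted p = 0.0897 by limma), lower on both arrays labelled PHO2 deletion. DAL7, the malate synthase copy that belongs to allantoin breakdown, differed by -0.46 (SE 0.10, adjusted p = 0.0656 by limma), and its relative MLS1 by 0.02. ADH1 and ADH2, and MLS1 and DAL7, are close relatives in sequence, and how far their probe sets respond to each other was not tested. When wild-type replicate 1 or any array labelled PHO2 deletion was left out, PYC1, ADH5 and MDH1 did not pass (adjusted p between 0.0681 and 0.255 by limma). MDH1 missed it also without wild-type replicate 2 (0.0716), without wild-type replicate 3 (0.0634) and with equal array medians (0.0692).

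**Figure D2:**
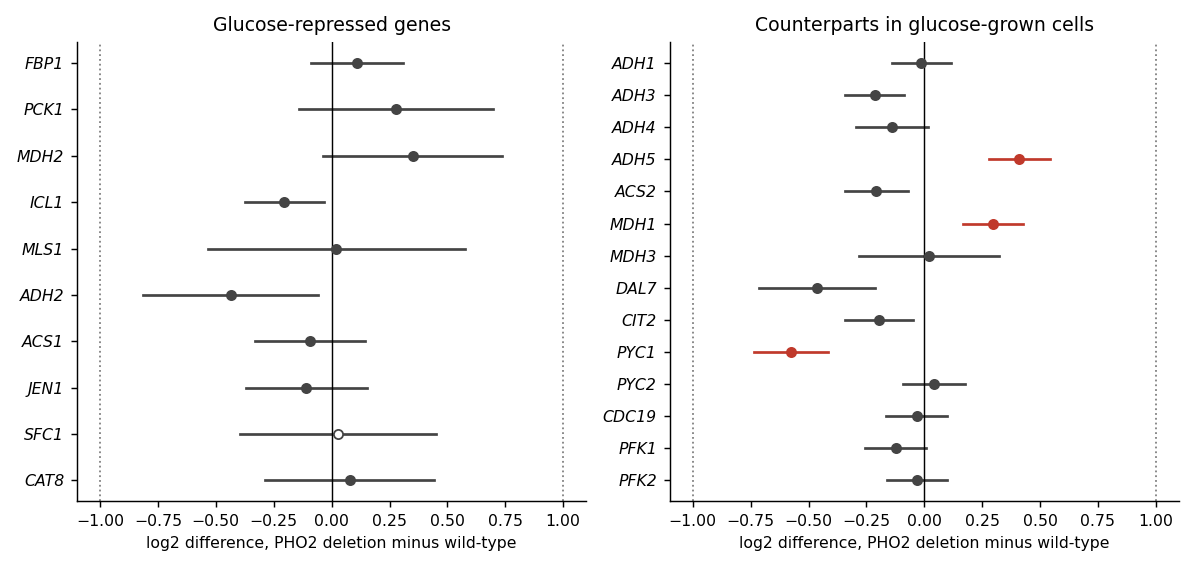
Log2 difference (horizontal axis; arrays labelled PHO2 deletion minus wild-type) with its 95% interval by limma for the 10 glucose-repressed genes (left) and 14 counterparts (right); red marks an adjusted p below 0.05 dotted lines a difference of 1 in either direction, and the open point SFC1, which is below the background bound. No repressed gene is red and none reaches the dotted lines, whereas PYC1 at -0.58, ADH5 at 0.41 and MDH1 at 0.30 are red.

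Other glucose-repressed genes differed in both directions. Of 18 genes for the use of acetate, lactate, glycerol, carnitine and fatty acids, 0 rose and 1 fell, with a median of 0.10 and a range from -0.40 to 0.52. Differences were above 0 in 13 of them, and 4 had an unadjusted p below 0.05 with higher and 2 with lower values (limma). The shares over all genes were 16.1% with higher and 13.3% with lower values. Both arrays labelled PHO2 deletion lay above every wild-type array in 6 genes and below in 2, against 0 and 2 of the 10 genes above. Such separation was held by 27.1% of all genes upward and by 25.9% downward. The gene that fell was DLD1, the mitochondrial D-lactate dehydrogenase, with 12.74, 12.77 and 12.68 on the wild-type arrays and 12.28 and 12.38 on the others (-0.40, SE 0.06, adjusted p = 0.0367 by limma). CYB2, the L-lactate dehydrogenase of the intermembrane space, was on the opposite side. It gave 9.11, 9.34 and 9.18 against 9.85 and 9.62 (0.52, SE 0.11, adjusted p = 0.0585 by limma), without overlap between the groups. The next in size was POX1, the first enzyme of fatty acid beta-oxidation, whose 3 wild-type values of 6.14, 6.41 and 6.17 lay below the bound, against 6.87 and 6.49 (adjusted p = 0.132 by limma). SIP4, an activator gene that Cat8 controls, differed by 0.27 (SE 0.17, adjusted p = 0.342 by limma). DLD1 did not pass when wild-type replicate 1 or any array labelled PHO2 deletion was left out (adjusted p between 0.130 and 0.231 by limma), nor without wild-type replicate 2 (0.0611).

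Of 10 measured genes for the use of other sugars, glucose phosphorylation and glucose sensing, 0 rose and 0 fell. An unadjusted p below 0.05 by limma was found for 5 of them, beside 29.4% of all genes. The 10 genes had a median of 0.00. GAL10, an enzyme of galactose use, had by far the largest difference, with 7.38, 7.85 and 6.68 on the wild-type arrays and 8.78 and 8.80 on the others (1.48, SE 0.34, adjusted p = 0.0732 by limma). The wild-type arrays spanned 1.18 for this gene, yet both other arrays lay above them. GAL3, the sensor of the galactose pathway, differed by 0.36 (SE 0.07, adjusted p = 0.0552 by limma).

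Genes of the glucose repression machinery held 3 that rose and 0 that fell of 23, beside 3.17% of all genes that rose and 1.87% that fell. NRG1 and NRG2 encode zinc finger repressors that act at glucose-repressed promoters and are linked to Snf1. Their coding lengths are 696 and 663 nt, where the median of the 23 genes is 1461 nt. The part of length in their differences was not tested. NRG1 gave 8.84, 9.03 and 8.89 on the wild-type arrays and 10.05 and 9.56 on the arrays labelled PHO2 deletion (0.89, SE 0.16, 1.85-fold, adjusted p = 0.0455 by limma). NRG2 gave 11.00, 11.23 and 10.88 against 11.73 and 11.67 (0.66, SE 0.11, 1.58-fold, adjusted p = 0.0433 by limma). Both repressor genes were thus higher on each array labelled PHO2 deletion than on any wild-type array, as were 27.1% of all genes. TOS3, a kinase gene whose product activates Snf1, rose by 0.38 (SE 0.07, adjusted p = 0.0468 by limma). ADR1, the activator of ADH2 and of peroxisomal genes, had the largest negative difference, with 9.58, 9.79 and 9.80 against 9.27 and 9.07 (-0.55, SE 0.10). It missed the threshold by little (adjusted p = 0.0504 by limma) and passed it in 6 of 13 alternative settings (adjusted p from 0.0222 to 0.218).

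No other gene of the switch passed the test. SNF1 differed by 0.12 (SE 0.05, adjusted p = 0.186 by limma), MIG1 by -0.13 (SE 0.07) and HXK2, the hexokinase that takes part in repression, by -0.04 (SE 0.05). HAP4, the activator subunit for respiratory genes, differed by 0.12 (SE 0.07, adjusted p = 0.283 by limma). HAP3, a DNA-binding subunit of the same complex with a short coding length of 435 nt, differed by 0.64 (SE 0.17, adjusted p = 0.0943 by limma), without overlap between the groups. Of 8 genes of the GID ubiquitin ligase, which removes gluconeogenic enzymes when glucose returns, 0 rose and 0 fell. An unadjusted p below 0.05 by limma was found for 2 of them, beside 29.4% of all genes. The largest differences of the 8 were those of UBC8 (0.33, adjusted p = 0.177 by limma) and VID24 (-0.29, adjusted p = 0.0655 by limma). When wild-type replicate 1 or any array labelled PHO2 deletion was left out, NRG1, NRG2 and TOS3 did not pass (adjusted p between 0.0535 and 0.257 by limma). Without wild-type replicate 3 they missed it too (0.0755, 0.0561 and 0.0678), and NRG1 (0.0599) and TOS3 (0.0528) also without wild-type replicate 2. TOS3 missed it when the arrays were quantile normalized again (0.0817) and with a trend in eBayes (0.0602).

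Some respiratory genes rose in the arrays in which no gluconeogenesis or glyoxylate gene was called. Of 47 nuclear genes of the tricarboxylic acid cycle, the respiratory chain and ATP synthase, 10 rose and 1 fell, beside 3.17% of all genes that rose and 1.87% that fell. With the arrays quantile normalized again, 173 genes of the whole set rose and 210 fell, in place of 173 and 102. The respiratory median was 0.40, against 0.02 for the 10 repressed genes, and 38 of 47 lay above every wild-type array and 5 below, against 0 and 2 of 10. The background for such upward separation was 27.1% of all genes, and it differed by coding length, as given below. Succinate dehydrogenase subunits were among those that rose, with the iron-sulfur subunit gene SDH2 at 0.64 (adjusted p = 0.0145 by limma) and the membrane anchor gene SDH4 at 0.60 (0.0152). RIP1, the gene of the Rieske protein, rose by 0.61 (adjusted p = 0.0250 by limma). ACO1, the aconitase that supplies isocitrate to the tricarboxylic acid and glyoxylate cycles alike, fell by 0.39 (SE 0.06, adjusted p = 0.0312 by limma). These 4 genes did not pass when wild-type replicate 1 or any array labelled PHO2 deletion was left out (adjusted p between 0.0695 and 0.221 by limma), and ACO1 also not without wild-type replicates 2 (0.0554) or 3 (0.0510). Without wild-type replicate 1, 0 respiratory genes rose, and 23 of all 5449 genes were called in either direction. The respiratory median stayed at 0.40 in that setting. It was 0.41 without PHO2 deletion replicate 1 and 0.42 without PHO2 deletion replicate 2.

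**Figure D3:**
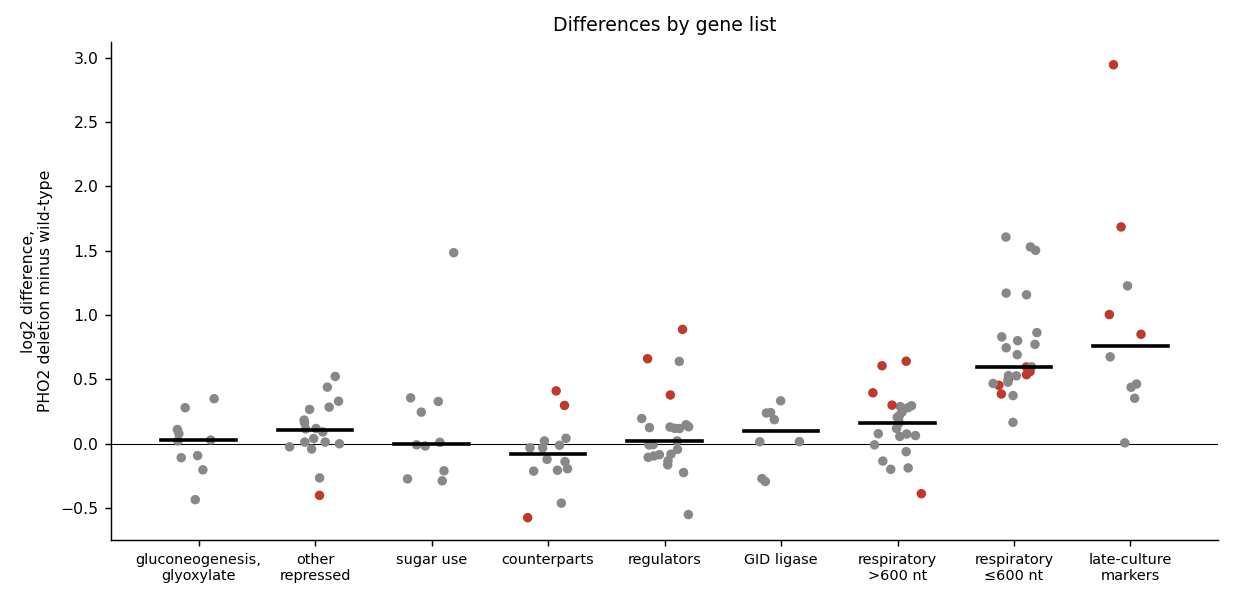
Log2 difference (vertical axis; arrays labelled PHO2 deletion minus wild-type) of every gene in 9 groups of genes, with black lines for medians and red for an adjusted p below 0.05 by limma; horizontal scatter carries no meaning. The gluconeogenesis and glyoxylate genes have a median of 0.02, the respiratory genes 0.16 or 0.60 by coding length, and the genes listed as late-culture markers 0.76.

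Coding length moved with these differences. All 10 gluconeogenesis and glyoxylate genes are long, from 969 to 4302 nt, whereas 24 of the 47 respiratory genes have 600 nt or less. The short respiratory genes had a median of 0.60, with 6 risen and 0 fallen. All 908 genes of that length had a median of 0.32, with 32 risen and 4 fallen. The 23 longer respiratory genes had a median of 0.16, with 4 risen and 1 fallen. The 4541 genes over 600 nt had a median of -0.02, with 141 risen and 98 fallen. Of the 4 longer respiratory genes that rose, SDH2 has 801 nt and RIP1 648 nt. Among the longer genes the contrast with the repressed genes was thus 0.16 against 0.02. Both arrays labelled PHO2 deletion lay above every wild-type array in 23 of the 24 short respiratory genes, beside 556 of all 908 short genes. They did so in 15 of the 23 longer respiratory genes, beside 921 of the 4541 longer genes. The difference between the lists was not tested, nor was the part of length in it.

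**Figure D4:**
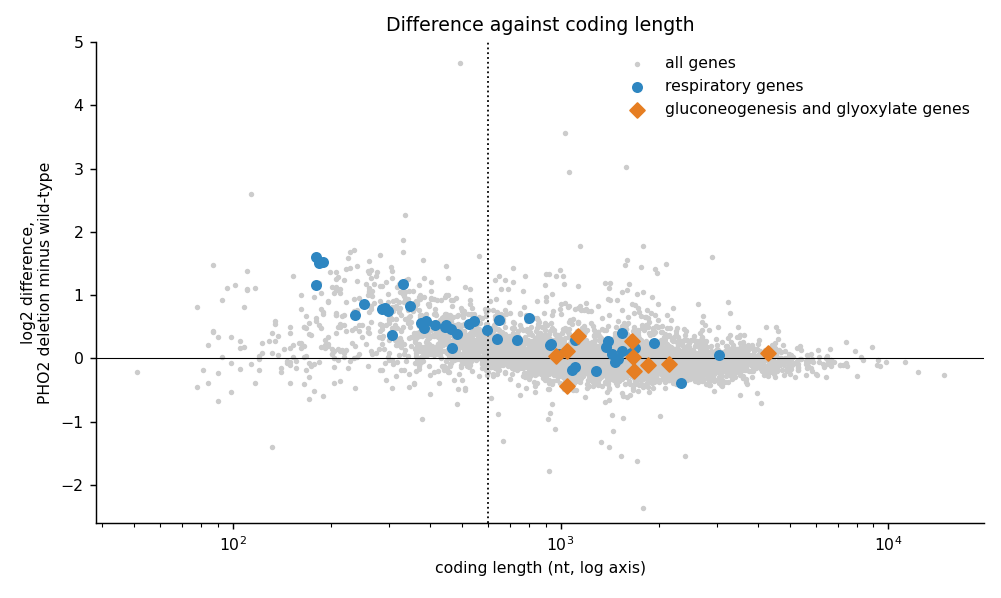
Log2 difference (vertical axis; arrays labelled PHO2 deletion minus wild-type) against coding length (horizontal log axis, nt) for all 5449 genes (grey), 47 respiratory genes (blue) and the 10 gluconeogenesis and glyoxylate genes (orange diamonds); the dotted line marks 600 nt. Short genes lie mostly above 0, and every orange diamond lies to the right of the line and close to 0.

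Some genes listed as markers of cultures that leave the glucose phase were also higher. Of 10 such genes 4 rose and 0 fell, where 3.17% of all genes rose and 1.87% fell. The 10 genes had a median of 0.76. Among them 6 have a coding length of 600 nt or less, HSP12 and SPI1 included, and all genes of that length had a median of 0.32. Their summed signal ran from 12.80 to 13.11 on the wild-type arrays and reached 14.58 and 14.48 with the RNA labelled PHO2 deletion (log2 of the sum), without overlap. YGP1 and HSP12 weigh most in that sum on those 2 arrays and had the largest differences. YGP1, a secreted cell wall glycoprotein gene, rose by 2.95 (SE 0.12) and passed the test whichever array was left out. HSP12, a small membrane-associated heat shock protein gene, rose by 1.69 and CTT1, cytosolic catalase T, by 0.85 (adjusted p = 0.0211 and 0.0471 by limma). SPI1, a cell wall protein gene, rose from 9.46, 9.65 and 9.19 to 10.42 and 10.46 (adjusted p = 0.0288 by limma). SSA3, an Hsp70 gene, differed by 0.01, and the markers other than YGP1, HSP12, CTT1 and SPI1 did not pass the test. Per the labels every culture grew exponentially, and whether growth phase differed between the groups was not tested. Of the 10 markers, 8 were above the bound on every array, and SPG4 and SIP18 were not. HSP12, SPI1 and CTT1 did not pass when wild-type replicate 1 or any array labelled PHO2 deletion was left out (adjusted p between 0.0822 and 0.253 by limma), and CTT1 also not without wild-type replicate 3 (0.0786). The part of these markers in the respiratory result was not tested.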

How the data were processed

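The authors deposited an intensity per probe set, on the linear scale, for 10928 probe sets on 5 arrays, with values from 9.49 to 37719. Per the submitters' processing notes, R 2.8.0, the affy package and RMA were used, and that RMA values were returned to the linear scale is inferred from the range. The sources used here do not say which arrays were normalized together, and 0 columns of other samples were used. Quantile normalization, a step of RMA, would hide a change common to most transcripts.

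The log2 of the intensity was taken. The platform annotation and the gene table of assembly R64 matched 5498 probe sets to 5449 genes, and for 47 genes with several probe sets the brightest was used. Coding lengths come from that table. No genome build is named for the values, so no coordinates are given, and sequences were not used here. Groups and replicate numbers come from the sample titles. A linear model per gene was fitted in limma 3.58.1 under R 4.3.3 (lmFit, then eBayes; two-sided, 3 residual and 2.23 prior degrees of freedom), with Benjamini-Hochberg adjustment over all genes and a threshold of 0.05. "Rose" and "fell" are used only of genes that passed. The fit was checked on simulated data. A permutation of 3 against 2 arrays allows too few splits to pass the threshold. The number of arrays limits the precision. GAL4 of the sugar list had no matched probe set and was not analysed here.

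The genes and lists were chosen with earlier results of these data known. Named are the 10 genes, fixed counterparts and regulators, up to 4 called genes per list by smallest adjusted p, and, in lists with fewer than 2 calls, the 2 largest differences. Genes of cell types served as markers. HAP3, MF(ALPHA)2, SAG1, PYC2, SSA3, SPG4 and SIP18 were named after their values were seen. Alternatives changed the normalization, the filters, the spread estimate, the pairing and the arrays included.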

Additional observations from a re-analysis of the deposited data

How the results depend on the processing

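Of the 10 genes, 0 were called in 12 of 13 alternatives, and 1 (ICL1) was called with the arrays quantile normalized again. Their median difference ran from -0.11 to 0.09 over the alternatives. The lowest median was that with the arrays quantile normalized again, where PCK1, at 0.28 as reported, differed by 0.0338. Differences near 0 changed sign without being called: with the arrays quantile normalized again FBP1 was at -0.0703, MLS1 at -0.148 and CAT8 at -0.0806, and with equal array medians, which lowers every difference by the same amount, MLS1 was at -0.0243. Leaving out each array in turn gave -0.31 to 0.35 for MLS1 and -0.0105 to 0.214 for CAT8. The number of called respiratory genes, 11 as reported, was 20 with a trend in eBayes, 28 with array weights and 0 to 15 without each array in turn, and their median was 0.16 without genes of 600 nt or less. The 18 other repressed genes held 3 called genes with the arrays quantile normalized again, 3 with array weights, 2 without short genes and 0 to 1 without each array in turn. Over all genes 275 were called, 638 with array weights, 489 without short genes and 19 to 257 without each array in turn. The cause of these changes was not tested. Leaving out either array labelled PHO2 deletion leaves a lone array, which is assumed to vary like the wild-type arrays.

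The groups share replicate numbers 1 and 2, and the labels do not say whether same-numbered arrays belong together. Deviations of same-numbered arrays from their group means correlated across genes with r = -0.38 for number 1 and 0.00 for number 2. The arrays labelled PHO2 deletion are only 2, so their deviations mirror each other. These r values therefore cannot decide whether the arrays are paired. With the replicate number as a block, 35 genes were called, 1 of the respiratory genes and 0 of the other repressed genes. MLS1 was at -0.0696 and CAT8 at -0.0105. Wild-type replicate 3 has no partner in that fit, so its differences equal those without wild-type replicate 3, where 243 genes were called. The block also leaves fewer residual degrees of freedom, and the fall in calls is not a measure of pairing. The brightness of the probe sets over background limits the values of SFC1, FBP1 and MLS1 most.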
